A study of Mus musculus with 36 samples.

Results

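The genes described here encode the machinery that docks, primes and releases cytotoxic granules in natural killer (NK) cells. The list named 10 genes, and a gene was kept where its symbol matched a row in each of the 4 deposited expression tables. That left 9 genes of up to 56923 rows per table: Rab27a, Unc13d, Stxbp2, Stx11, Vamp8, Lyst, Coro1a, Was and Dock8. Vamp7 was not analysed here. The matching rule uses no measured value, and all 9 passed the filter on low values in every table. The genes, and the lists of related genes used below, were however chosen with earlier results of these data known. Their counts beside all genes are therefore descriptions.

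Killing by NK cells depends on granules that carry perforin and granzymes to the contact with a target cell. Actin is remodelled at that contact, granules are tethered and primed at the plasma membrane, and SNARE proteins fuse the granule and plasma membranes. Inherited loss of several of these genes in people causes immune disorders with defective granule release, such as Griscelli syndrome (RAB27A), familial hemophagocytic lymphohistiocytosis (UNC13D, STX11, STXBP2) and Chediak-Higashi syndrome (LYST).

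RNA was sequenced from mouse NK cells in 36 libraries, in 12 groups of 3 biological replicates. The first table held CD27-CD11b+ splenic NK cells from WT (B2m+/+, C57BL/6) mice and from B2m-/- mice (KO), which lack beta-2-microglobulin and therefore most surface MHC class I. In each genotype 3 subsets were sorted by inhibitory receptors for MHC class I. The TP sort was positive for NKG2A, Ly49I and Ly49C, the SP sort for Ly49I but not the other two, and the TN sort for none of them. The second table held NK cells purified from WT splenocytes that had been treated with ionomycin (a calcium ionophore) or its vehicle for 22 h. The third held NK cells of WT splenocytes kept for 48 h in medium or on plates coated with antibodies to a pair of activating receptors, either NKG2D or DNAM-1 together with NKp46. For 6 of the 9 samples of that experiment the sample title and the named table column gave different groups, and the columns were followed. The fourth held CD27-CD11b+ NK cells from subcutaneous tumours of B6 mice 10 days after inoculation with 4E6 B2m-/- MC38 cells, a mouse colon carcinoma line. Its columns are named B2MKO and SP although the genotype label is WT, and B2m was at 3928.87 to 5196.03 TPM in these libraries. Ages and sexes of the mice were not given in the sources used here.

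Values are in TPM, which scale reads by gene length to a share of the library, so levels can be set side by side between genes of 1 library. TPM keep no depth, so the precision of a value is the spread over 3 libraries. The deleted gene B2m lay between 73.93 and 128.47 TPM in the 9 KO libraries and between 2915.39 and 3419.55 TPM in the 9 WT subset libraries. The summed level of 8 NK markers was 11150 to 12770 TPM in the subset table, 5377 to 8923 with vehicle or ionomycin, 7351 to 8220 in the antibody table and 4243 to 4739 in the tumour table. Neutrophil markers (6 genes, S100a8 and S100a9 among them) summed to 60.98 to 217.4 TPM in the 3 KO TP libraries, and to at most 5.85 TPM in the other subset libraries. They summed to 377.1 TPM in vehicle replicate 3 and 120.2 TPM in ionomycin replicate 3, and to at most 2.19 TPM in the other libraries of that table. B cell and plasma cell markers (8 genes) also summed higher in KO TP, at 404.2 to 683.4 TPM, than in WT TP, at 167.4 to 181.4 TPM. In replicate order, the NK marker sums were 8287, 8923 and 5537 TPM for vehicle. For ionomycin they were 6721, 6198 and 5377 TPM. Vehicle replicate 3 was thus inside the range of the ionomycin libraries. The part of these sums in the levels of the 9 genes was not tested.

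Coro1a, an actin-binding coronin of leukocytes, had the highest level of the 9 genes in the mean of each table. Over the 18 subset libraries it averaged 1185 TPM (lowest 1015.86, median 1174, highest 1342.42 TPM), at the 99.4th percentile of tested genes. Stxbp2, the Munc18-family chaperone of syntaxin-11, followed at a mean of 235.1 TPM, and Coro1a was above Stxbp2 in 18 of 18 libraries without overlap. Was, Unc13d, Dock8, Rab27a and Vamp8 came next, with means of 157.2, 142.4, 135.2, 106.3 and 86.64 TPM. The ranges of each neighbouring pair in that run overlapped, so this part of the order is not separated from the spread over libraries. Stx11 and Lyst had the lowest levels, with means of 38.37 and 26.39 TPM, with single-library ranges that overlapped each other. Vamp8 was above Stx11 in 18 of 18 libraries without overlap. The level of Stxbp2 divided by that of its partner Stx11 lay between 3.69 and 9.03 in the subset libraries.

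Over the 18 libraries of both genotypes, the median coefficient of variation of the 9 genes was 14.1%, beside 16.1% for the 6181 tested genes in the same range of levels and 24.0% for all 12018 tested genes. Coro1a varied least, at 7.73%, and Lyst most, at 26.3%, with single-library levels of Lyst from 17.8 to 41.7 TPM.

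**Figure D1:**
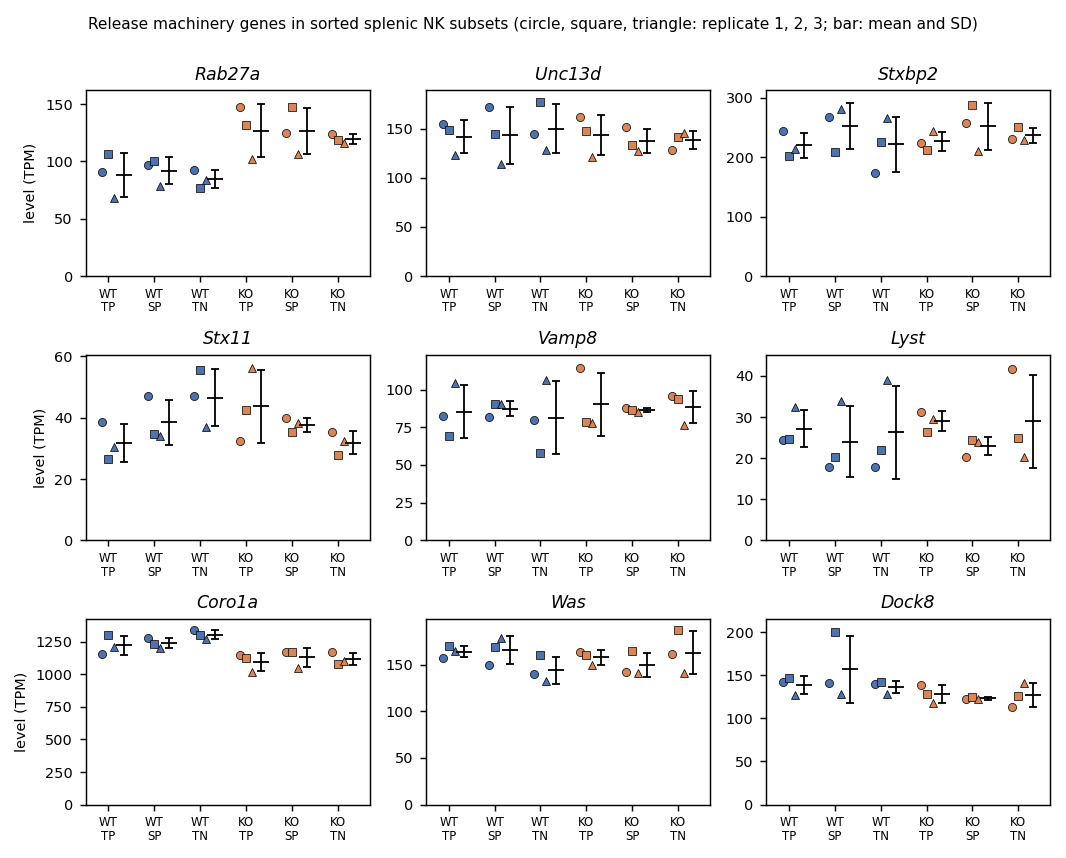
Level in TPM (y axis, from 0) of each of the 9 genes in 6 groups of sorted splenic NK cells; circles, squares and triangles are replicates 1, 2 and 3, and the bar is the mean with its SD. Rab27a averaged 119.6 to 126.9 TPM in the 3 KO groups and 84.52 to 91.9 TPM in the 3 WT groups, while Vamp8 and Unc13d overlapped throughout.

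Reference promoters are shown for Coro1a and Dock8, the genes that changed with ionomycin, and for Lyst, which had the largest higher value there, because NFAT factors act downstream of the calcium that ionomycin raises. The windows are from RefSeq (build GRCm38.p6, not the build of the expression tables) and run from 250 bases before to 50 bases after a gene's start. They matched 8 of the 9 genes in 10 windows, with no window for Unc13d. Capitals mark the core NFAT motif GGAAA on either strand (TTTCC on the other strand), which contains the GGAA of ETS sites. For Coro1a the more upstream of 2 listed starts is shown, at chr7:126704767-126705066 on the minus strand, for Dock8 chr19:24999279-24999578 on the plus strand, and for Lyst chr13:13590159-13590458 on the plus strand, each written 5′ to 3′ along the gene.
Coro1a: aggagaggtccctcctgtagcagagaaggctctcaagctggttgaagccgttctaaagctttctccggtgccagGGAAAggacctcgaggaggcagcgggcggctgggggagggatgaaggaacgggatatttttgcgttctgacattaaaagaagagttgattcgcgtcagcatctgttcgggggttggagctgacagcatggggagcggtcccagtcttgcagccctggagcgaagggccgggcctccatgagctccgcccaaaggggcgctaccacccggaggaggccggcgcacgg
Dock8: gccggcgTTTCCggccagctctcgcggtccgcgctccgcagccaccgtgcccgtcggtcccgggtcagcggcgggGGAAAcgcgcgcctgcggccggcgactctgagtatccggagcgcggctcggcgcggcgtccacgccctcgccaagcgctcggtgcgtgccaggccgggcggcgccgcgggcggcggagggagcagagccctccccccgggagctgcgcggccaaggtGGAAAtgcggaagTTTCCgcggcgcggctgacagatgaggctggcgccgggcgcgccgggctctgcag
Lyst: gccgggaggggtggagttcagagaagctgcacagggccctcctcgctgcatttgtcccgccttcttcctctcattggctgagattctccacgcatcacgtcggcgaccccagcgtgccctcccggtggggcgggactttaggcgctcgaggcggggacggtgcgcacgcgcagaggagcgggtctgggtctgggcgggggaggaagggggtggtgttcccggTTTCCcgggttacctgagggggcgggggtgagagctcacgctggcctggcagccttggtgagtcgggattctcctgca
The core occurred 4 times in the Dock8 window and once in each of the windows shown for Coro1a and Lyst. It was in 7 of the 10 member windows and in 61.3% of all 32851 windows, so its presence is common. The longer ETS motif CCGGAAG was found in the window of Stxbp2 alone among the members, beside 8.86% of all windows. The GC box GGGCGG was in 6 of 10 member windows and in 35.7% of all. The AP-1 motif TGANTCA (7.81% of all windows), the CRE motif TGACGTCA (1.79%) and the TATA motif TATAAA (13.6%) were in none of the member windows on either strand. A match describes letters in a window and is neither a binding site nor a cause.

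The first question was whether receptor-defined subsets differ in the release machinery. In WT mice these subsets differ in how they are educated by MHC class I. KO mice lack most surface MHC class I, so their comparisons are by receptor and are not read here as contrasts of education. No gene of the 9 passed the test (limma, adjusted p under 0.05 over all tested genes) in any of the 6 subset comparisons within a genotype. The share of all tested genes called was 1.31% for TN against TP in WT, 0.191% for SP against TP, 0.383% for TN against SP, and 0.524%, 0.2% and 0.0416% for the same pairs in KO. Before adjustment, p was under 0.05 for 1 of the 9 genes in TN against TP of WT (12.5% of all genes) and 0 for each of the other pairs (7.71% and 12.1% of all genes in WT, and 6.43%, 2.93% and 2.77% in KO). Every alternative setting that was run also called 0 of the 9. For 1 gene alone, permuting 3 and 3 libraries exactly gives no p below 0.1, so the tests rest on the model across genes. The p-values measure the spread between these libraries, and in bulk libraries fewer cells of a type and less RNA per cell cannot be told apart.

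The gene below that unadjusted threshold was Stx11, the syntaxin that receives granules at the plasma membrane. In WT mice its levels were 38.49, 26.37 and 30.6 TPM in TP cells, 47.01, 34.72 and 33.99 TPM in SP cells and 47.03, 55.7 and 36.94 TPM in TN cells. In KO mice they were 32.26, 42.56 and 56.18 TPM in TP, 39.86, 35.28 and 38.13 TPM in SP, and 35.23, 27.9 and 32.47 TPM in TN cells. The TN and TP ranges overlapped in both genotypes, and the order of the means was opposite, with TN above TP in WT and below it in KO. TN minus TP was 0.53 on the log2(TPM + 1) scale in WT (SE 0.209, adjusted p = 0.286) and -0.41 in KO (SE 0.209, adjusted p = 0.809). The difference between these differences was -0.95 (95% interval -1.57 to -0.32, unadjusted p = 0.00542, adjusted p = 0.615), which did not pass. In that comparison of differences 0 of the 9 genes and 0.025% of all genes passed, and 1 of 9 and 6.27% of all had an unadjusted p under 0.05. KO TP cells are the libraries with neutrophil markers, and the part of these markers in the Stx11 values was not tested.

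For the other 8 genes the TN minus TP differences in WT ran from -0.19 for Was, the activator of Arp2/3-driven actin branching, to 0.09 for Coro1a. In KO the 8 differences ran from -0.07 for Rab27a to 0.06 for Stxbp2. The interval for Coro1a in WT, -0.05 to 0.23, is the narrowest, and that for Lyst, -0.74 to 0.51, the widest. Differences of Lyst of either sign are within its interval.

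Among related genes that were listed beside the 9, a few actin and cargo genes passed for TN against TP in WT, and 0 genes of the 5 lists passed for SP against TP or TN against SP. Of 40 actin genes of the synapse, 2 fell in TN relative to TP: Cfl1 (cofilin, an actin-severing protein) from 1846 ± 74.44 to 1501 ± 71.83 TPM (SD, n = 3, adjusted p = 0.0115) and Msn (moesin, which links actin to membrane) from 733.8 ± 35.74 to 613.7 ± 3.265 TPM (adjusted p = 0.048). The list of granule cargo and membrane genes, called cargo genes here, includes Serpinb9, an inhibitor of granzyme B. Of 13 tested cargo genes, 3 fell: Gzmb by 0.42, Prf1 by 0.33 and Gzma by 0.32 on the log2 scale (adjusted p = 0.0131, 0.0343 and 0.011). None of 24 SNARE and priming partners, 16 relatives and effectors of Rab27 or 24 genes of lysosome-related organelles passed in that comparison. The median difference was -0.02 for the 9 genes, -0.09 for the actin genes, -0.21 for the cargo genes and -0.01 for all genes. These calls held in 8 (Cfl1), 2 (Msn), 9 (Gzmb), 5 (Prf1) and 8 (Gzma) of 13 alternative settings. Under quantile normalization the difference of Gzma was 0, which is counted among the settings where its call was lost. That setting gives equal values to genes of equal rank, so it cannot show a change in a gene that keeps its rank. In KO, 0 genes of the 5 lists passed for TN against TP. Of the 13 cargo genes 7 had an unadjusted p under 0.05 there (limma), beside 6.43% of all genes. Gzmb, Prf1 and Gzma were lower on average in KO TN than in KO TP cells. They were at 925, 1291 and 8755 TPM against 1129, 1520 and 10020 TPM. Msn was at 654.8 against 701.5 TPM and Cfl1 at 1745 against 1748 TPM.

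The second question was whether loss of MHC class I changes the machinery. No gene of the 9 passed for KO against WT in TP (1.59% of all genes called), SP (1.35%) or TN cells (0.716%), and none passed in any alternative setting run. Before adjustment, p was under 0.05 for 2, 2 and 3 of the 9, beside 11.8%, 11.7% and 10.5% of all genes.

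Rab27a, the small GTPase that tethers granules at the plasma membrane, was higher on average in KO in all 3 subsets. In TP cells it was at 147.68, 131.34 and 101.79 TPM in KO and at 90.34, 106.38 and 68.29 TPM in WT. In SP cells the KO values were 125.12, 147.4 and 106.78 TPM and the WT values 97.06, 100.19 and 78.46 TPM. In TN cells they were 123.89, 119.07 and 115.71 TPM in KO and 92.43, 77.17 and 83.96 TPM in WT. The groups overlapped in TP, through KO replicate 3 and WT replicate 2, and did not overlap in SP and TN. It was the one member of the 9 wholly above WT in SP and in TN, where 11.1% and 7.95% of all genes were, and no member was in TP (11.1%). KO minus WT was 0.52, 0.45 and 0.50 on the log2 scale (SE 0.168 for each), with adjusted p of 0.167, 0.271 and 0.262.

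Because the pattern recurred, the 3 subsets were averaged within each mouse in a comparison added after these values were seen, with mice read from the genotype and number in the column names. Rab27a then averaged 132.2, 132.6 and 108.1 TPM in the KO mice and 93.28, 94.58 and 76.9 TPM in the WT mice, without overlap. The difference was 0.49 (95% interval 0.24 to 0.74, unadjusted p = 0.00179), and its adjusted p of 0.0687 did not pass. None of the 9 genes passed there, against 1.86% of all genes, while 16.7% of all genes had an unadjusted p under 0.05. All KO mice were above all WT mice for 14.7% of genes and below them for 8.71%. With the TP libraries left out the difference of Rab27a was 0.47 (adjusted p = 0.12).

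Coro1a was lower in KO by a small amount in each subset. Its levels were 1147.14, 1128.14 and 1015.86 TPM in KO TP cells against 1158.39, 1299.71 and 1213.67 TPM in WT TP cells. In SP cells they were 1175.56, 1170.13 and 1047.38 TPM against 1277.88, 1233.44 and 1201.32 TPM, and in TN cells 1172.13, 1079.04 and 1101.64 TPM against 1342.42, 1302.36 and 1271.52 TPM. All KO libraries of a subset lay below all WT libraries of that subset. The differences of -0.16, -0.13 and -0.22 had adjusted p of 0.344, 0.457 and 0.182. Averaged per mouse the difference was -0.17 (95% interval -0.29 to -0.06, adjusted p = 0.141). Coro1a was the 1 member wholly below WT in TP (7.14% of all genes). Dock8, an exchange factor for Cdc42, joined it in SP (7.78%), and Stx11 joined it in TN (5.76%).

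Dock8 in SP cells was at 122.56, 124.84 and 122.21 TPM in KO and at 141.58, 200.94 and 128.47 TPM in WT, where replicate 2 stood apart. Its difference of -0.32 had an adjusted p of 0.358. Stx11 in TN cells had a difference of -0.52 (adjusted p = 0.375). Unc13d (the Munc13-family priming factor that binds Rab27a), Stxbp2, Vamp8, Lyst and Was differed by -0.15 to 0.17 between genotypes in the 3 subsets, with adjusted p of 0.624 or more.

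Some relatives of the 9 did change with genotype. Rab37, another secretory Rab, fell in KO TP cells from 183.2 ± 17.67 to 101.2 ± 7.234 TPM (SD, n = 3, adjusted p = 0.00527) and in KO SP cells from 177.8 ± 32.21 to 86.89 ± 9.084 TPM (adjusted p = 0.00106). It was the only one of 16 Rab27 relatives to pass in either comparison, and none passed in TN cells. Vamp2, a vesicle SNARE, was the only one of 24 SNARE partners to pass, and it rose in KO TP cells from 178.2 ± 13.04 to 227 ± 14.56 TPM (adjusted p = 0.0443), a call that held in 4 of 13 alternative settings. Neutrophil markers were at 60.98 TPM or more in those KO TP libraries, and their part in the Vamp2 value was not tested. Of 40 actin genes and 24 organelle genes, 0 passed in the 3 subsets.

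**Figure D2:**
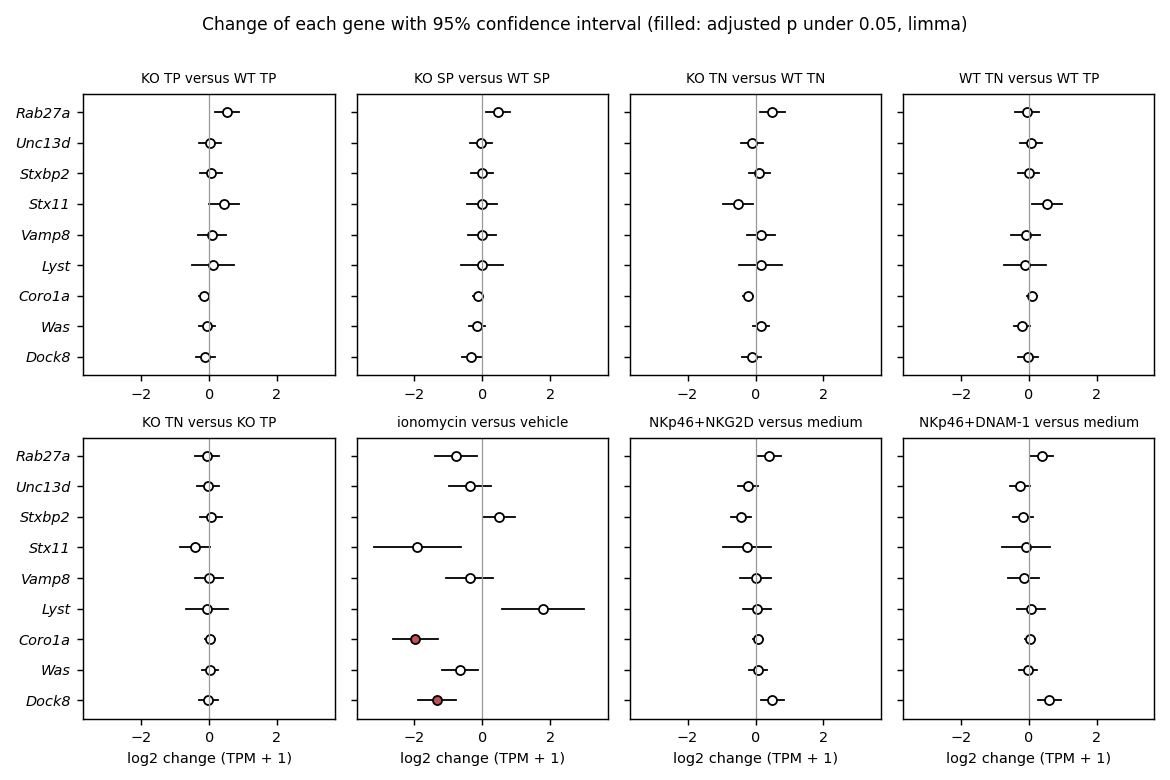
Difference of each of the 9 genes on the log2(TPM + 1) scale (x axis) with its 95% interval (line) in 8 comparisons; filled points passed at an adjusted p under 0.05. Only Coro1a (-1.97) and Dock8 (-1.33) with ionomycin are filled, and the Rab27a points lie between 0.45 and 0.52 in the KO panels.

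Ionomycin gave the clearest change, with a fall of the actin regulators Coro1a and Dock8. Those 2 of 9 genes passed, both lower, beside 2.91% of all 14372 tested genes. A further 5 of the 9 had an unadjusted p under 0.05, making 7 of 9 beside 15.1% of all genes. Groups did not overlap for 4 genes that were lower (9.57% of all genes) and 2 that were higher (10.5%). The median difference of the 9 was -0.66, and that of all genes -0.004.

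Coro1a was at 1031.42, 803.24 and 615.86 TPM with vehicle against 283.14, 201.2 and 147.57 TPM after ionomycin. The highest ionomycin library lay far below the lowest vehicle library, and replicate 3 was the lowest of both groups. It fell by 1.97 on the log2 scale, which is 3.91-fold (SE 0.288, adjusted p = 0.0115). In the 3 vehicle libraries Coro1a was above Stxbp2, as in the sorted subsets, and in the 3 ionomycin libraries it was below it.

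Dock8 was at 203.43, 190.05 and 147.96 TPM with vehicle against 66.27, 59.62 and 88.2 TPM after ionomycin. The lowest vehicle library is replicate 3, which carries neutrophil markers, and the groups did not overlap. It fell by 1.33, or 2.52-fold (SE 0.246, adjusted p = 0.0263). Was, the third actin regulator, was at 100.32, 116.87 and 138.03 TPM with vehicle against 80.48, 66.55 and 74.92 TPM after ionomycin, a difference of -0.66 that did not pass (adjusted p = 0.205).

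Both calls were lost when some single libraries were left out, which also leaves fewer libraries in the fit. Without ionomycin replicate 2, ionomycin replicate 3 or vehicle replicate 2, neither gene passed, and Coro1a then had adjusted p of 0.0882, 0.0825 and 0.0589 and Dock8 of 0.155, 0.0901 and 0.11. Without ionomycin replicate 1, Dock8 alone lost its call (adjusted p = 0.136). Without both libraries of number 3, which carry the neutrophil markers, the differences were -1.93 for Coro1a (adjusted p = 0.0524) and -1.63 for Dock8 (adjusted p = 0.0677), in a fit of 2 against 2 that called 0.595% of all genes and 0 of the 9.

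Stx11 and Lyst had differences close in size to that of Coro1a, with more spread. Stx11 was at 162.12, 153.97 and 39.06 TPM with vehicle against 18.18, 41.65 and 22.03 TPM after ionomycin. Vehicle replicate 3, the vehicle library with the lowest summed NK markers (5537 TPM), lay inside the ionomycin range of Stx11. The difference of -1.92 (SE 0.562) did not pass (adjusted p = 0.13). Without that library it was -2.58 and passed (adjusted p = 0.00997), and without both libraries of number 3 it was -2.47 (adjusted p = 0.078). Lyst, the BEACH-domain protein that sets the size of lysosomes and granules, was at 12.46, 53.91 and 58.88 TPM with vehicle against 146.2, 106.37 and 113.84 TPM after ionomycin. All ionomycin libraries were above all vehicle libraries, with vehicle replicate 1 far below the other two. The difference of 1.79 (SE 0.532) did not pass (adjusted p = 0.137), whereas without vehicle replicate 1 it was 1.09 and passed (adjusted p = 0.0446).

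Differences of the docking genes were smaller. Rab27a was at 66.74, 66.97 and 59.75 TPM with vehicle against 41.39, 28.96 and 42.51 TPM after ionomycin, a difference of -0.78 (adjusted p = 0.203) between groups that did not overlap. Stxbp2 was at 189.01, 209.79 and 206.16 TPM with vehicle against 334.48, 232.83 and 287.11 TPM after ionomycin, a difference of 0.48 (adjusted p = 0.317) in the other direction. Unc13d and Vamp8 had overlapping groups, with differences of -0.36 and -0.37. The ratio of Stxbp2 to Stx11 levels was 1.17, 1.36 and 5.28 with vehicle and 18.4, 5.59 and 13.0 with ionomycin, without overlap.

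**Figure D3:**
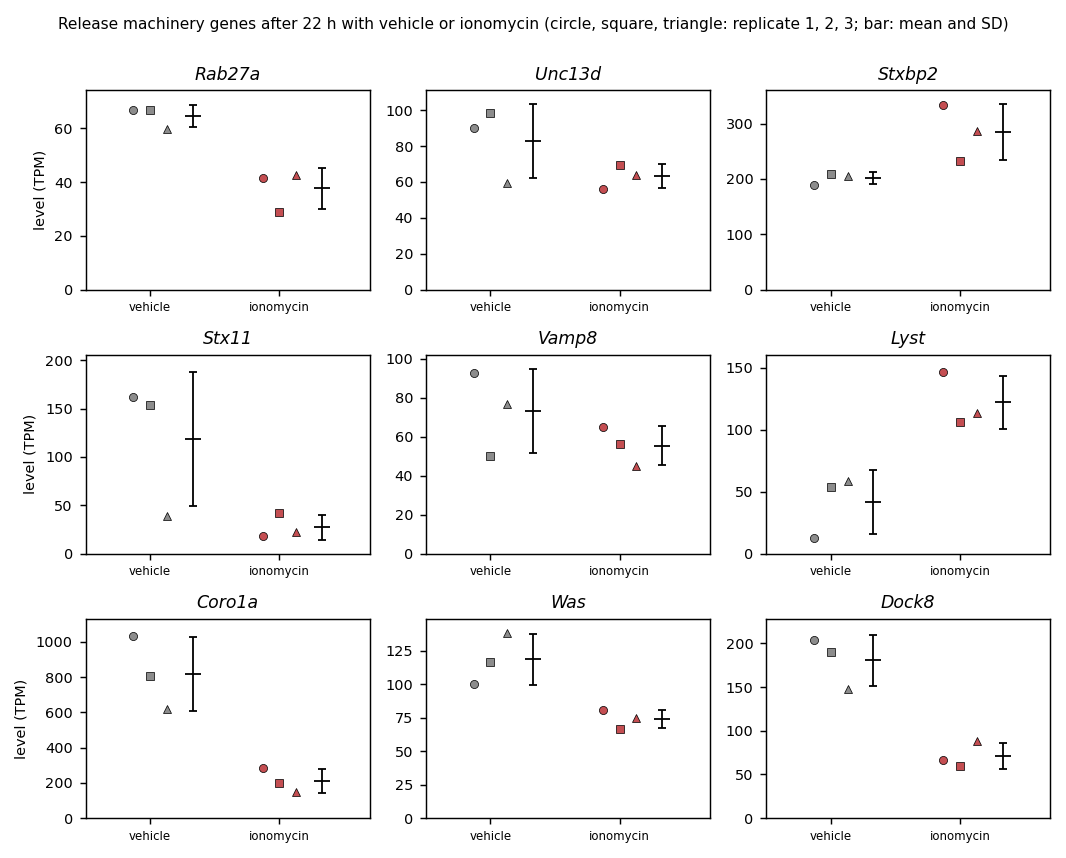
Level in TPM (y axis, from 0) of each of the 9 genes in NK cells after 22 h with vehicle or ionomycin; circles, squares and triangles are replicates 1, 2 and 3, and the bar is the mean with its SD. Coro1a fell from 816.8 to 210.6 TPM and Dock8 from 180.5 to 71.36 TPM in the means, and the 2 high vehicle values of Stx11 (162.12 and 153.97 TPM) contrast with 39.06 TPM in replicate 3.

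Genes working beside the 9 also changed with ionomycin. Of 40 actin genes of the synapse, 4 fell and 0 rose: Coro1c (another coronin) from 208.9 ± 21.85 to 68.08 ± 11.66 TPM (SD, n = 3, adjusted p = 0.00972), Fermt3 (kindlin-3, an integrin activator) from 182.7 ± 31.75 to 74.07 ± 12.29 TPM (adjusted p = 0.0259), Rac2 (a GTPase that drives actin assembly) from 1316 ± 346.1 to 602.9 ± 57.85 TPM (adjusted p = 0.0416), and Vasp, outside the naming rule, by 0.94 on the log2 scale (adjusted p = 0.0447). Of 16 Rab27 relatives and effectors 1 fell, Sytl2, a synaptotagmin-like effector that binds Rab27 on granules. It was at 148.03, 140.82 and 142.99 TPM with vehicle against 46.53, 52.11 and 41.28 TPM after ionomycin, far apart (-1.61, adjusted p = 0.00915).

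Of 24 genes of lysosome-related organelles and BEACH proteins, 1 rose and 1 fell. Ap3b1, a subunit of the AP-3 adaptor that sorts cargo to lysosomes and granules, rose from 55.77, 53.69 and 75.85 TPM to 309.86, 215.2 and 250.79 TPM (2.05, adjusted p = 0.0052). Nbeal2, a BEACH-domain relative of Lyst, fell by 1.49 (adjusted p = 0.0314), while the value of Lyst itself was higher. None of 24 SNARE and priming partners passed, with 3 at an unadjusted p under 0.05. Of 13 cargo genes, Srgn (serglycin, the granule proteoglycan) rose by 1.54 (adjusted p = 0.0203), and Ctsw (cathepsin W) and Gzma fell by 2.86 and 2.21 (adjusted p = 0.0107 and 0.00767). Over 13 alternative settings each, the call held in 12 for Ap3b1, 9 for Gzma, 8 for Sytl2, 7 for Coro1c and Ctsw, 6 for Nbeal2, Fermt3 and Srgn, and 5 for Rac2. With the replicate number as a block, 1 actin gene passed as higher beside 4 lower, 2 Rab27 relatives passed as lower in place of 1, and 3 cargo genes as lower in place of 2. The share of all genes passing with that block is not given here, so these counts are not set against it. List medians were 0.08 for the SNARE partners, -0.42 for the Rab27 relatives, 0.05 for the organelle genes, -0.33 for the actin genes and -0.29 for the cargo genes. The summed T cell markers were 2.24 to 7.87 TPM with vehicle and 12.78 to 25.27 TPM with ionomycin, with Cd4, Cd8a and Cd8b1 at 0, and their part in these values was not tested.

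**Figure D4:**
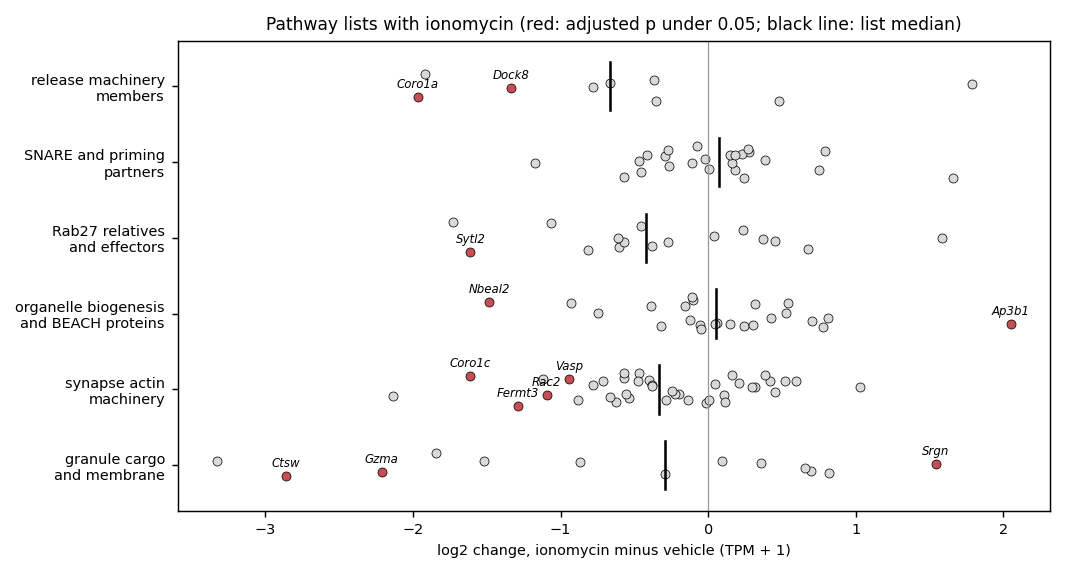
Difference of each gene with ionomycin on the log2(TPM + 1) scale (x axis) for the 9 genes and 5 lists of related genes; red points with names passed at an adjusted p under 0.05, and black lines are list medians. The actin list has 4 red points, all on the negative side, and the SNARE list has none.

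With activating antibodies for 48 h, Dock8 had the highest differences of the 9. No gene passed for NKp46 with NKG2D (0.431% of 13689 tested genes called) or for NKp46 with DNAM-1 (0.782%), and 3 and 2 of the 9 had an unadjusted p under 0.05, beside 15.1% and 18% of all genes. Dock8 was at 108.79, 146.85 and 139.13 TPM in medium, at 156.26, 182.74 and 218.7 TPM with NKp46 and NKG2D, and at 191.22, 188.27 and 218.84 TPM with NKp46 and DNAM-1. All antibody libraries were above all medium libraries. The differences were 0.49 (SE 0.154, adjusted p = 0.194) and 0.61 (SE 0.154, adjusted p = 0.107). With the replicate number as a block, which reads a number as 1 mouse, Dock8 passed for DNAM-1 (adjusted p = 0.0284) as the 1 gene of the 9, beside 3.86% of all genes, and for NKG2D it had an adjusted p of 0.0697. Both antibody comparisons share the medium libraries.

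Rab27a was at 52.1, 69.92 and 54.67 TPM in medium, at 66.56, 86.18 and 82.45 TPM with NKG2D and at 73.21, 74.3 and 81 TPM with DNAM-1. Its differences were 0.41 (adjusted p = 0.259) and 0.38 (adjusted p = 0.249), and the DNAM-1 libraries did not overlap medium. Stxbp2 was lower with NKG2D, at 130.91, 155.69 and 130.87 TPM against 162.9, 192.38 and 208.66 TPM in medium, without overlap (-0.43, adjusted p = 0.194). With DNAM-1 Stxbp2 was at 190.25, 153.84 and 159.58 TPM, inside the range of medium for 1 library (-0.16, adjusted p = 0.564). Unc13d had differences of -0.22 and -0.27, and its DNAM-1 libraries lay below medium. For NKG2D, 1 of the 9 was wholly higher (7.5% of all genes) and 1 wholly lower (9.84%), and for DNAM-1 2 were wholly higher (9.46%) and 1 wholly lower (11.6%).

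Coro1a, Was, Lyst, Vamp8 and Stx11 differed from medium by -0.24 to 0.08. Coro1a was at 974.64 to 1116.09 TPM in all 9 libraries, and its intervals of -0.07 to 0.22 for NKG2D and -0.12 to 0.18 for DNAM-1 reach no higher than 0.22. The 2 antibody pairs did not separate: 0 of the 9 genes passed between them (0.0146% of all genes), 0 had an unadjusted p under 0.05 (1.22% of all), and the largest difference was 0.27 for Stxbp2 (95% interval -0.03 to 0.57). Among related genes Nbeal2 fell with DNAM-1 from 225.5 ± 36.76 to 129.5 ± 7.492 TPM (SD, n = 3, adjusted p = 0.0361), the 1 gene of the 5 lists to pass in either comparison with medium, and the call held in 5 of 14 alternative settings. With the sample titles taken as groups, the difference of Nbeal2 went from -0.78 to -0.20 (adjusted p = 0.842), and 0 of the 9 genes passed in either comparison. With the replicate number as a block, 3 of 14 cargo genes passed as higher and 1 of 24 organelle genes as lower for NKG2D. The share of all genes passing in that fit is not given here. For DNAM-1, 4 cargo genes passed as higher, 1 cargo gene as lower and 1 organelle gene as lower, beside 3.86% of all genes in either direction. T cell markers summed to 27.64 to 71.62 TPM in medium, 20.78 to 28.55 TPM with NKG2D and 20.14 to 39.6 TPM with DNAM-1, and their part was not tested.

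**Figure D5:**
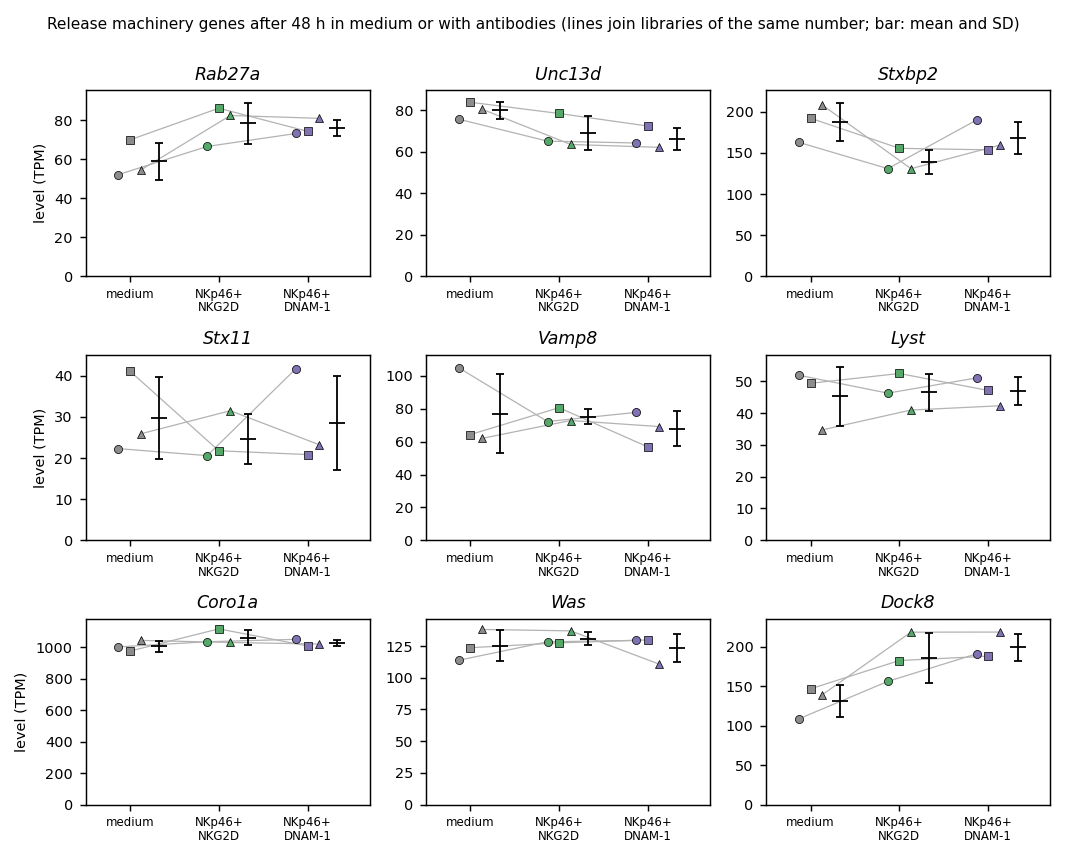
Level in TPM (y axis, from 0) of each of the 9 genes after 48 h in medium or with antibodies to NKp46 and NKG2D or to NKp46 and DNAM-1; grey lines join libraries of the same number, and the bar is the mean with its SD. All antibody libraries of Dock8 (means 185.9 and 199.4 TPM) are above all medium libraries (mean 131.6 TPM), a difference that did not pass the test without the number as a block.

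NK cells from tumours formed 1 group, so their levels are described only. Coro1a was again the highest, at 567.63, 522.56 and 645.47 TPM, followed by Stxbp2 at 144.3, 215.1 and 111.98 TPM and Dock8 at 103.41, 126.45 and 93.36 TPM. Was was at 94.76, 72.96 and 73.26 TPM, Vamp8 at 52.23, 61.73 and 54.62 TPM, and Unc13d at 39.22, 43.7 and 43.38 TPM. Rab27a spread most, at 57.26, 74.15 and 29.97 TPM. Stx11 was at 51.28, 43.1 and 60.55 TPM and Lyst at 22.61, 37.99 and 33.7 TPM, so the ratio of Stxbp2 to Stx11 was 2.81, 4.99 and 1.85. Fibroblast markers (3 collagen genes) summed to 32.48 to 925 TPM in these libraries and to at most 6 TPM in all others. Most of that sum was Col3a1, at 31.04, 910.2 and 739.09 TPM. Col1a1 was at 0.89, 12.32 and 14.31 TPM and Col1a2 at 0.55, 2.44 and 5.02 TPM. Erythroid markers (3 genes found) summed to 0, 208.2 and 333.3 TPM and macrophage and monocyte markers (7 genes) to 39.9 to 90.53 TPM. The part of these markers in the levels was not tested. The tables were normalised separately, so no level was compared between tumour and spleen by a test.

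Across the 33 libraries of the first 3 tables, after centring each table, Coro1a and Dock8 varied together (Pearson r = 0.76) and Lyst ran opposite to Coro1a (r = -0.73). Within the 18 subset libraries alone these were 0.43 and -0.19. Of 10736 genes tested in all 3 tables, the most alike in pattern were Vim (r = 0.95) and Ptpre (0.95) for Coro1a, Cisd3 (0.85) and Fgr (0.84) for Dock8, Sft2d2 (0.83) and Itm2b (0.83) for Lyst, Coro2a (0.82) and Il2rg (0.81) for Stx11, and Ubash3a (0.83) for Was. For Rab27a they were Sfxn1 (0.80) and Serpinb9b (0.78), and those values stayed at 0.65 and 0.80 within the subset libraries, whereas Vim with Coro1a was at 0.38 there. Within the subset libraries the sign turned for Il2rg with Stx11 (-0.23) and for Itm2b with Lyst (-0.11). For Unc13d, Stxbp2 and Vamp8 no gene exceeded an r of 0.74. The points share tables, treatments and mice, so these values are descriptions.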

How the data were processed

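RNA (RIN above 7, 50 ng per library) was isolated with miRNeasy Micro and made into poly(A) libraries with KAPA mRNA HyperPrep, per the labels' protocols. The authors deposited TPM, a length-scaled unit with no read counts, in 4 tables. STAR, RSEM and GRCm39 are named in the submitters' processing notes, and the annotation is not given in the sources used here. TPM sum to about the same total in each library and hide depth, so a gene that takes a larger share lowers all others. Each table carries a single batch date, and groups were compared only within a table.

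Genes averaging 1 TPM or more over a table were tested as log2(TPM + 1) with limma 3.58.1 (R 4.3.3, trended variance, two-sided), all groups of a table in 1 fit. Calls needed a Benjamini-Hochberg adjusted p under 0.05 over all genes tested, in 14 comparisons. Tables were joined with Python 3.11.15 and pandas 2.3.3, and the scripts were tested on simulated data. Column names join a number to a genotype, which was read as 1 mouse per number. Same-numbered libraries of different groups correlated in their deviations from group means by 0.01 on average for the sorted subsets, 0.062 for ionomycin and 0.064 for the antibodies. The members and the gene lists were chosen with earlier results of these data known. From each list, up to 3 called rises and 3 called falls with non-overlapping groups were named per comparison, largest first, and for each member the 2 tested genes with the highest Pearson r over 33 libraries, of which 1 is not reported here. Promoter windows are from RefSeq, GRCm38.p6. The alternatives were another pseudocount (0.1), no filter, other scalings, no variance trend, only the compared groups in the fit, a replicate block, sample titles as groups, and each replicate left out.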

Additional observations from a re-analysis of the deposited data

How the results depend on the processing

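The 2 calls among the 9 genes with ionomycin became 1 with no filter on low values, 0 without the variance trend and 0 with both libraries of number 3 left out (an alternative chosen after seeing the data), and ranged from 0 to 3 when single replicates were left out. Among these alternatives, the share of all genes called is given only for the fit without both libraries of number 3 (0.595%). In the other fits a general loss of calls was not separated from a loss in these genes, and the cause was not tested. Over 13 alternatives the difference of Coro1a ran from -2.21 to -1.74 (adjusted p = 0.00531 to 0.0882, passing in 8) and that of Dock8 from -1.63 to -1.22 (adjusted p = 0.0171 to 0.155, passing in 6), and neither changed direction. With the replicate number as a block, the count for NKp46 with DNAM-1 became 1, and with ionomycin it stayed at 2 (adjusted p = 0.00531 for Coro1a and 0.0449 for Dock8). No member's call changed with the block in the other comparisons. The comparison of genotypes averaged per mouse was also chosen after seeing the data. For the 26 called results on named genes, 213 of 339 alternative values passed, 126 did not, and 0 changed direction. The genes that passed in every alternative run were Rab37 in TP and SP cells and Serpinb9 in all 3 subsets, for KO against WT. Depth cannot be read from TPM, so the spread over 3 libraries is the only measure of precision, and differences such as that of Rab27a in KO did not pass after adjustment over all genes.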

Other observations

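Serpinb9, Ctsc and Gzmb, from the list of granule cargo and membrane genes, passed between genotypes. Serpinb9, the serpin that inhibits granzyme B inside the killer cell, rose in KO from 221.8 ± 3.6 to 405.1 ± 12.05 TPM in TP cells, from 226.7 ± 6.655 to 395.1 ± 32.09 TPM in SP cells and from 248 ± 10.33 to 385.4 ± 8.571 TPM in TN cells (SD, n = 3, limma adjusted p = 1.23e-06, 3.49e-06 and 6.59e-05). Ctsc, the cathepsin that activates granzymes, rose by 0.58 on the log2(TPM + 1) scale in SP and in TN cells (adjusted p = 0.00562 and 0.00909), and the call held in 12 and 10 of 13 alternative settings. Gzmb rose in KO TN cells from 709.6 ± 51.03 to 925 ± 83.93 TPM (adjusted p = 0.0431), a call that held in 5 of 13. Of the 13 tested genes of that list, 1 passed for TP (Serpinb9), 2 for SP (Serpinb9 and Ctsc) and 3 for TN cells (all of these with Gzmb), all higher. Serpinb9 is an inhibitor of a cargo protein and not cargo itself, so no cargo gene passed in TP. Of all genes, 1.59%, 1.35% and 0.716% were called in either direction, and whether the list differs from all genes was not tested.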
